A study of Mus musculus with 22 samples.

Results

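The 10 transcripts described here encode the signalling parts of the T cell receptor and the surface proteins and kinases that work with it. They are Cd3d, Cd3e, Cd3g, Cd247, Cd8a, Cd8b1, Cd4, Lck, Zap70 and Cd28, 10 of the 46882 genes listed, and were chosen by name as parts of this pathway. The study transplanted MC38, a mouse colon carcinoma cell line, under the skin of female mice, and the RNA of whole tumor pieces, of the cell line and of normal skin was sequenced. Of the 16 libraries used here, 6 came from tumors of wild-type C57BL/6N hosts, 3 of them taken on day 23 and 3 on day 46. The labels give another 6 tumors as RAG1-/-, grown in hosts of the strain B6.129S7-Rag1tm1Mom/J, with 3 of day 13 and 3 of day 23. MC38 cells of day 0 and wild-type C57BL/6N skin, labelled day 23, gave 2 libraries each. Hosts and skin donors were 8 to 12 weeks old. These 16 libraries belong to a series of 22, whose other 6 are tumors treated with anti-PD-L1 or a control antibody and are not analysed here. None of the groups used here received an antibody, and nothing in the labels says that the MC38 samples were separate cultures.

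The T cell receptor binds peptide on MHC molecules with a pair of variable chains that cannot signal alone. The CD3 gamma, delta and epsilon chains and the zeta chain encoded by Cd247 carry the signal into the cell, where the kinase LCK, brought in by the coreceptors CD4 or CD8, phosphorylates them and ZAP70 docks and passes the signal on. RAG1 is needed to assemble receptor genes, so RAG1-/- hosts lack mature T and B cells but keep natural killer (NK) cells, macrophages and dendritic cells. Their tumors show how many reads of these transcripts come from other cells in those tumors. The other cells of wild-type tumors may differ.

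Values are normalized counts, reads per gene divided by a size factor of the library, and 1 read was worth 0.442 to 2.13 normalized counts. Libraries held 5589151 to 26134241 reads on genes, and 3 reads, used as the floor, came to 1.33 to 6.38 normalized counts depending on the library. Rag1, the deleted gene, lies on the minus strand of chromosome 2 (101638282 to 101649501, GRCm38) and had 1, 1 and 12 reads in the day 13 tumors labelled RAG1-/- and 4, 1 and 4 in those of day 23, against 1 read in all 6 wild-type tumors. These reads are opposite in direction to a loss of the whole transcript. A 3′ library reads the end of a transcript, and the sources used here do not say whether the deleted part reaches it. The Rag1 reads therefore do not check the deletion. The directions below rest on the labels, and "the tumors labelled RAG1-/-" is meant throughout. The B cell gene Igkc went with the labels (50.7 to 287 normalized counts in wild-type tumors and at most 1.77 in the others). Of the 6 tumors labelled RAG1-/-, replicate 3 of day 13 had the highest summed level of the 10 transcripts, 41.0 normalized counts against 24.6 in the next, and 43 reads against 39 in the deeper replicate 3 of day 23. The colon epithelium genes Cdx2 and Krt18 had no read in MC38 cells, and Epcam and Cdh1 had at most 3.91 normalized counts.

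The 10 genes lie on 4 chromosomes of GRCm38. Cd3g (chromosome 9, 44969572 to 44980431, minus strand) and Cd3d (44981786 to 44987339, plus strand) stand back to back with 1355 bases between their starts, and Cd3e (44998740 to 45009627, minus strand) lies 11401 bases past the end of Cd3d. Cd8b1 (chromosome 6, 71322788 to 71337494, plus strand) ends 35933 bases before Cd8a (71373427 to 71379173, plus strand), and Cd4 is on the same chromosome (124864692 to 124888221, minus strand). Zap70 (36761798 to 36782818), Cd28 (60716800 to 60773359) and Cd247 (165788681 to 165877277) are on the plus strand of chromosome 1, and Lck (129548344 to 129573641, minus strand) is on chromosome 4. Exons of the opposite-strand gene Pou2f1 cover 56.4% of the exonic bases of Cd247, and 26.2% of the exonic bases nearest its 3′ end. Since the strand setting of the counting is not given, Cd247 reads may belong in part to Pou2f1. No exon of another gene overlaps those of Cd3d, Cd3g, Cd8a, Cd8b1, Cd4, Zap70 or Cd28.

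The promoter windows of the clustered CD3 genes and of Cd8a are shown because each of these 4 genes had at most 3 reads in all tumors labelled RAG1-/- together. Each runs 5′ to 3′ on the gene's strand from 250 bases before the start of transcription to 50 after it, from RefSeq on GRCm38.p6, and capitals mark the letters GGAAGT, a core of ETS factor sites, or CAGCTG, an E-box, on either strand (GGAAGT reads ACTTCC on the other strand). The windows are chr9:44980382-44980681 for Cd3g and chr9:44981536-44981835 for Cd3d, chr9:45009562-45009861 for Cd3e and chr6:71373177-71373476 for Cd8a.
Cd3g: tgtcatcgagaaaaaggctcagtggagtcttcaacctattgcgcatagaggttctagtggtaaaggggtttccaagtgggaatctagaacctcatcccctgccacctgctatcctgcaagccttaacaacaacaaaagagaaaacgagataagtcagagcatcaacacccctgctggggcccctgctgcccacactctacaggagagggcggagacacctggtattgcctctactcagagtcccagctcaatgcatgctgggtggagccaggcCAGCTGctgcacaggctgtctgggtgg
Cd3d: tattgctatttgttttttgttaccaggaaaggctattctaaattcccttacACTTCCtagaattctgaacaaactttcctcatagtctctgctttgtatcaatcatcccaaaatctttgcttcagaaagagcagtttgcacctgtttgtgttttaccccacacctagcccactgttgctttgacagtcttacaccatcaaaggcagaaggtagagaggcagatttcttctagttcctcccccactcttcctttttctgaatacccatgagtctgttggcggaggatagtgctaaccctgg
Cd3e: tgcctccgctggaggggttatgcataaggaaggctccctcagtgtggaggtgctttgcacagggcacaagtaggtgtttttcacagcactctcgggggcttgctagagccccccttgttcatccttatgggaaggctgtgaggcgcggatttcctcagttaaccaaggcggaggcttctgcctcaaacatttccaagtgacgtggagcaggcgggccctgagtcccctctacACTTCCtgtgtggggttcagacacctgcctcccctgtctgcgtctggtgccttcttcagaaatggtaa
Cd8a: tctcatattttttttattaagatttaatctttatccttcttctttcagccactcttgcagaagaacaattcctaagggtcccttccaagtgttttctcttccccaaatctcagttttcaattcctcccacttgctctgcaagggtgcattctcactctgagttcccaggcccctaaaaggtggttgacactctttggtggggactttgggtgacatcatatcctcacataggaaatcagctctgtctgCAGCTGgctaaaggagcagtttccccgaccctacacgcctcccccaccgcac
RefSeq windows were found for 7 of the 10 genes, 10 windows in all, with no entry for Cd8b1, Cd4 or Cd28. GGAAGT was present in 6 of these 10 windows, those of Cd3d, Cd3e, Cd247 and Lck and 1 of Zap70, and in 23.8% of all 32851 windows of the same length. CAGCTG was present in 2 of 10, those of Cd3g and Cd8a, and in 16.3% of all windows. TGTGGT, a core of RUNX sites, was present in 2 of 10 (Lck and Zap70) against 16.8%, and TATAAA in 0 of 10 against 13.6%. A match is only a run of letters, and the motifs did not overlap each other in the windows shown.

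Transcripts of the CD3 chains were read in wild-type tumors and in skin and were near or at 0 in MC38 cells and in tumors labelled RAG1-/-. For Cd3d, the delta chain, wild-type tumors gave 50.9, 16.2 and 19.0 normalized counts on day 23 and 1.95, 26.9 and 37.7 on day 46. Those labelled RAG1-/- gave 2.86 (3 reads) in replicate 3 of day 13 and 0 in the other 5, and both MC38 libraries were at 0. The groups overlapped only through the lowest wild-type tumor, replicate 1 of day 46, whose 2 reads lay below the 3 reads of that library. The ratio of the pooled levels was 59.1 (95% counting interval 19.9 to 289, from 202 and 3 reads). Cd3d was higher in wild-type tumors over both days (log2 fold change 3.97, standard error 0.67, limma adjusted p = 0.0110, n = 6 against 6).

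Cd3e, the epsilon chain, was at 17.0, 11.1 and 7.92 normalized counts in the day 23 wild-type tumors and at 3.91, 18.8 and 23.2 in the day 46 tumors, with no read in any tumor labelled RAG1-/- or in MC38. Every wild-type tumor thus stood above every tumor labelled RAG1-/-. Against a floor of 3 reads over the 6 libraries together (0.470 normalized counts), Cd3e was at least 32.2-fold higher in wild-type tumors (limma adjusted p = 0.00543). Cd3g, the gamma chain, had 14.0, 0 and 12.7 normalized counts at day 23 and 1.95, 1.34 and 3.14 at day 46, and again no read in the 6 tumors labelled RAG1-/-. Its 36 reads made it at least 10.5-fold higher by the same floor. The groups met at 0 in replicate 2 of day 23 (exact permutation test, two-sided, p = 0.0152). Cd3g was under the filter of a mean of 5 normalized counts over the 12 tumors, and in the fit without the filter it missed the threshold (limma adjusted p = 0.220).

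Cd247, the zeta chain, had 9.59, 2.56 and 6.34 normalized counts at day 23 and 8.80, 8.06 and 8.16 at day 46 in wild-type tumors. The 6 tumors labelled RAG1-/- lay between 0 and 1.91, so the groups did not overlap (exact permutation test, two-sided, p = 0.00217, the smallest p that 6 against 6 allows). The pooled ratio was 9.49 (95% counting interval 3.82 to 30.4). Cd247 too was under the filter, and without it the limma adjusted p was 0.0582. The wild-type tumors of day 46 were close together, at 8.34 ± 0.400 normalized counts (SD, n = 3).

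Of the coreceptors, the CD8 chains were near or at 0 in tumors labelled RAG1-/- and Cd4 was read in all 6 of them. Cd8a, the alpha chain of CD8, stood at 79.7, 17.0 and 49.1 normalized counts in the 3 wild-type tumors taken on day 23 and at 5.86, 14.1 and 30.8 on day 46. A single read, 0.442 normalized counts, was found in the 6 tumors labelled RAG1-/-, in replicate 3 of day 23, the deepest library. The groups did not overlap, and the pooled ratio was 206 with a 95% counting interval of 36.7 to 8186. Cd8a was higher in wild-type tumors over both days (log2 fold change 4.55, standard error 0.54, limma adjusted p = 0.000583).

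Cd8b1, the beta chain that pairs with CD8 alpha on most cytotoxic T cells, had 33.9, 8.52 and 39.6 normalized counts at day 23 and 0.977, 23.5 and 10.7 at day 46. No tumor labelled RAG1-/- held a read of it, and each MC38 library held 1. Cd8b1 was at least 39.2-fold higher in wild-type tumors (limma adjusted p = 0.0115), with replicate 1 of day 46, at 1 read, the only wild-type tumor near the background. Cd8b1 made up 14.3% to 62.5% of the Cd8a and Cd8b1 reads of a wild-type tumor, and the lowest share rests on 7 reads.

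Cd4, the coreceptor of helper T cells, overlapped between the genotypes. On day 23 the wild-type tumors gave 13.3, 3.41 and 0 normalized counts, and on day 46 they gave 2.93, 13.4 and 17.0. The tumors labelled RAG1-/- had 3.21, 1.11 and 16.2 at day 13 and 2.62, 2.13 and 5.74 at day 23, so all 6 held reads and replicate 3 of day 13 reached the level of the highest wild-type tumors. The difference over both days was 0.41 on the log2 scale with a standard error of 0.72 (limma adjusted p = 0.882). The ratio of the pooled levels was 1.71 with a 95% counting interval of 1.13 to 2.61, which leaves out the spread between tumors. MC38 cells had no Cd4 read.

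**Figure D1:**
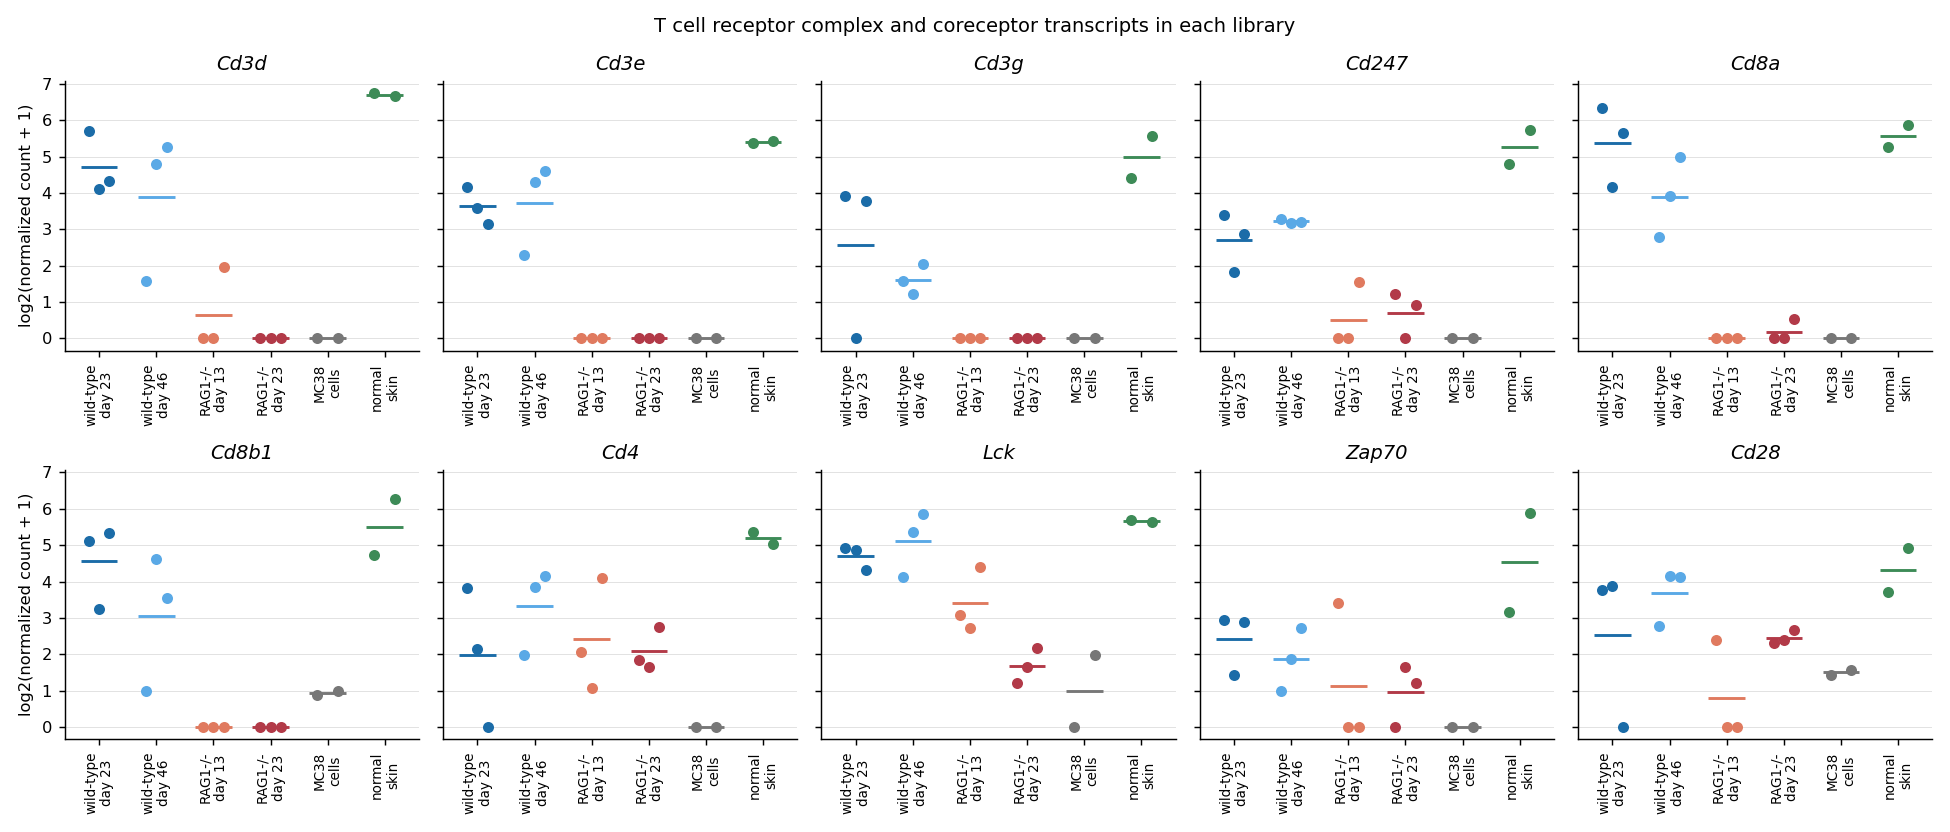
Each panel plots 1 transcript, with log2(normalized count + 1) of each library on the vertical axis and the 4 tumor groups (n = 3 each), MC38 cells and skin (n = 2 each) along the horizontal axis; points are libraries and bars the group means of the plotted values. Cd3e, Cd3g and Cd8b1 sit at 0 in all 6 tumors labelled RAG1-/-, while Cd4 and Lck have reads in all 6 of them.

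Of the kinases, Lck was read in every tumor. Wild-type tumors gave 29.5, 28.1 and 19.0 normalized counts on day 23 and 16.6, 40.3 and 56.5 on day 46. Tumors labelled RAG1-/- gave 7.49, 5.56 and 20.0 on day 13 and 1.31, 2.13 and 3.53 on day 23. Only replicate 3 of day 13 reached into the wild-type range, above the 16.6 and 19.0 of the lowest wild-type tumors. Lck was higher in wild-type tumors over both days (log2 fold change 2.37, standard error 0.42, limma adjusted p = 0.0124). Without the filter on low values Lck missed the threshold (limma adjusted p = 0.0531).

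Zap70 was low everywhere in the tumors, with 0.977 to 6.64 normalized counts in wild-type tumors and 0 to 9.63 in those labelled RAG1-/-. The highest of all 12 tumors was replicate 1 of day 13 labelled RAG1-/-, with 9 reads. Zap70 was under the filter, and without it the limma adjusted p was 0.723. The groups overlapped (exact permutation test, two-sided, p = 0.126), and the pooled ratio was 1.96 with a 95% counting interval of 0.987 to 4.11, from 29 and 13 reads. Cd28, the costimulatory receptor that adds a second signal to that of the receptor, had 12.5, 13.6 and 0 normalized counts at day 23 and 5.86, 16.8 and 16.3 at day 46 in wild-type tumors. Tumors labelled RAG1-/- had 4.28, 0 and 0 at day 13 and 3.93, 4.26 and 5.30 at day 23. Of the 6 wild-type tumors 5 lay above the highest of the others, and the sixth was at 0 (log2 fold change 1.49, standard error 0.71, limma adjusted p = 0.447). The pooled ratio was 3.76, with a 95% counting interval of 2.32 to 6.37. MC38 cells had 2 reads of Cd28 in each library.

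Over both days 7 of the 10 members could be tested, while Cd3g, Cd247 and Zap70 were under the filter. The 5 called higher in wild-type tumors were Cd3d, Cd3e, Cd8a, Cd8b1 and Lck, and none was lower. Of all 14746 genes tested 0.570% were called higher. Both days are days 23 and 46 for wild-type tumors and days 13 and 23 for the others. Genotype, tumor age and host strain therefore cannot be told apart in this comparison. All 10 had a higher mean in wild-type tumors. The median log2 fold change of the 10 was 2.36, or 2.89 with the 3 genes at 0 placed at their bounds, beside 0.01 over all genes tested. The other 3 tests gave similar counts for the members, with 4 of 10 without the filter (0.241% of 27827 genes called higher), 5 of 7 with edgeR (0.597%) and 5 of 7 with DESeq2 (1.32%). Every wild-type tumor stood above every tumor labelled RAG1-/- for 4 of the 10, Cd3e, Cd247, Cd8a and Cd8b1, against 0.399% of the 27827 genes with a read in a tumor. Among wild-type tumors, and between them and skin, bulk RNA cannot tell fewer T cells from less RNA of these genes per T cell.

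At day 23 alone, the only day both genotypes share, 2 of the 7 members tested were called higher, against 0.231% of genes. They were Cd8a (log2 fold change 5.21, standard error 0.77, limma adjusted p = 0.00994) and Lck (3.03, standard error 0.60, limma adjusted p = 0.0484). Host strain still differed between the genotypes. Without the filter only Cd8a was called (0.0647% of genes). Cd3d, Cd3e and Cd8b1 had no read in the 3 tumors of day 23 labelled RAG1-/- and, by a floor of 3 reads over these 3 libraries (0.858 normalized counts), were at least 36.9-fold, 15.1-fold and 29.9-fold higher in the wild-type tumors, with limma adjusted p of 0.0566, 0.0764 and 0.0571. Every wild-type tumor was above every tumor labelled RAG1-/- for 6 members, Cd3d, Cd3e, Cd247, Cd8a, Cd8b1 and Lck, against 6.14% of the 25023 genes read in these 6 tumors. For each of the 6 the exact permutation p was 0.1, the smallest that 3 against 3 allows. Leaving out 1 of these 6 tumors at a time removed the call of Lck in each of the 6 fits and that of Cd8a in 3, without replicate 1 or 3 of the wild-type tumors or replicate 1 of those labelled RAG1-/-.

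**Figure D2:**
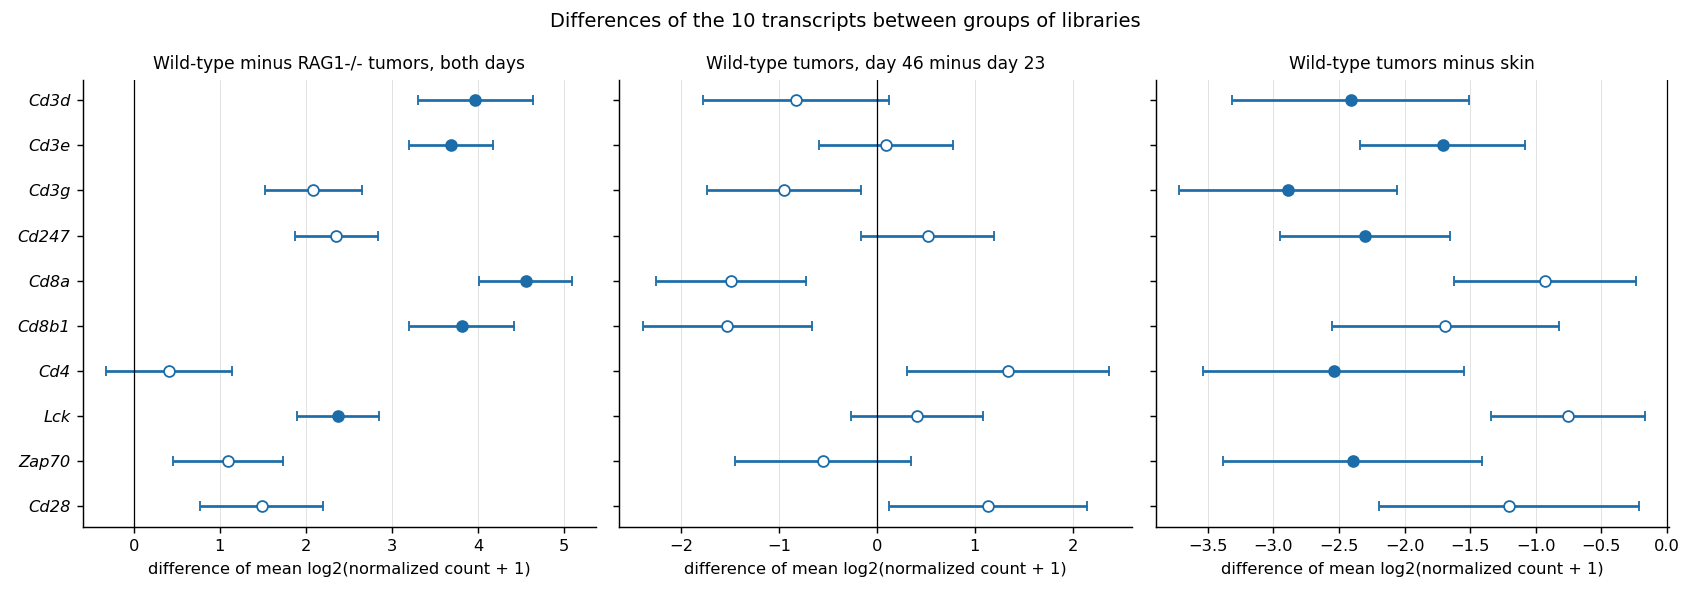
Differences between groups on the log2(normalized count + 1) scale for the 10 transcripts, from left to right wild-type tumors minus those labelled RAG1-/- over both days (n = 6 against 6), wild-type tumors of day 46 minus day 23 (n = 3 against 3) and wild-type tumors minus skin (n = 6 against 2). Bars are standard errors of the limma fit without a filter and filled points had an adjusted p under 0.05 in the filtered fit, as 5 members did on the left, 0 in the middle and 6 on the right. On the left and in the middle Cd3g, Cd247 and Zap70 were under the filter, so their open points are not results of that fit.

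Together the 10 transcripts summed to 49.8 to 267 normalized counts in wild-type tumors and 6.67 to 41.0 in those labelled RAG1-/-, without overlap. MC38 cells gave sums of 2.57 and 5.87 and skin 367 and 543. The reads left in tumors labelled RAG1-/- were not spread evenly over the members. Of their 123 reads of the 10 transcripts, 114 (92.7%) fell on Cd4, Lck, Zap70 and Cd28, 8 on the CD3 and zeta chains and 1 on the CD8 chains. In wild-type tumors Cd4, Lck, Zap70 and Cd28 took 443 of 1214 reads (36.5%), and in skin 215 of 700 (30.7%). MC38 cells held 9 reads in all, 3 of Lck, 4 of Cd28 and 2 of Cd8b1. Between the days of the tumors labelled RAG1-/-, no member passed the test, as did no gene (0% of 14746, limma, with 1722 genes at an unadjusted p under 0.05, 0 genes with edgeR and 206 with DESeq2). Lck had 5.56 to 20.0 normalized counts at day 13 and 1.31 to 3.53 at day 23 (log2 fold change -1.72, standard error 0.60, limma adjusted p = 0.287). The day 23 values of Lck rest on 1, 1 and 8 reads.

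Macrophage, NK cell and dendritic cell genes were read in the same tumors. The 10 macrophage and monocyte genes summed to 10907 to 18012 normalized counts in tumors labelled RAG1-/- and 12204 to 19732 in wild-type tumors, and none of the 10 was called in either direction. All 12 NK cell genes had reads in tumors labelled RAG1-/-. Their sum without Eomes, which MC38 cells also expressed at 190 and 235, was 32.7 to 163 normalized counts there and 61.6 to 437 in wild-type tumors, and 0 of the 8 that could be tested were called. The 7 dendritic cell genes summed to 78.6 to 149 normalized counts in tumors labelled RAG1-/- and 99.8 to 193 in wild-type tumors. Of the 2 that could be tested 0 were called, and without the filter 1 of the 7 was higher in wild-type tumors. MC38 cells also held reads of 2 of the 7, with a lowest sum of 102, so the sum is not of dendritic cells alone. Among the 7, Xcr1 had no read and Clec9a 1 read in the 6 tumors labelled RAG1-/-. In the 6 wild-type tumors Xcr1 was read in all 6 and Clec9a in 4. The epidermis list summed to 228 to 1627 normalized counts in wild-type tumors, highest in replicate 2 of day 23, and to 379 to 480 in the others. The part of these cells in the Cd4, Lck, Zap70 and Cd28 reads was not tested.

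No member was called between the days of wild-type growth (limma, 0% of 14746 genes called, with 1261 genes at an unadjusted p under 0.05, 0 genes with edgeR and 41 with DESeq2, none of them a member). The 2 CD8 chains had the lowest log2 fold changes, -1.49 for Cd8a (standard error 0.77, limma adjusted p = 0.622) and -1.53 for Cd8b1 (standard error 0.94, adjusted p = 0.674), and Cd4 the highest, 1.34 (standard error 1.02, adjusted p = 0.739). The spread within a day was as wide as these differences. Cd8a ranged from 17.0 to 79.7 normalized counts at day 23 and from 5.86 to 30.8 at day 46. Among the 6 wild-type tumors replicate 1 of day 23 was highest for 5 members and replicate 1 of day 46 lowest for 6.

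Because the fold changes of Cd4 and Cd8a had opposite signs, their balance within each library was also described, a measure chosen after the values were seen. Cd4 made up 14.3% of the Cd4 and Cd8a reads in replicate 1 of day 23 (95% Wilson interval 9.23 to 21.5), 16.7% in replicate 2 (6.68 to 35.9) and 0% of 31 reads in replicate 3 (0 to 11.03). At day 46 the shares were 33.3% (12.1 to 64.6, from 9 reads), 48.8% (34.3 to 63.5) and 35.5% (25.7 to 46.7). All 3 tumors of day 46 thus lay above all 3 of day 23, at 39.2% ± 8.36 (SD, n = 3) against 10.3% ± 9.01 (SD, n = 3), with an exact permutation p of 0.1 (two-sided), the smallest possible. The intervals of all 3 tumors of day 46 overlapped that of replicate 2 of day 23. In tumors labelled RAG1-/- 37 of 38 such reads were Cd4, and in skin the share was 51.7% and 35.7%. On day 23 the tumors labelled RAG1-/- held Cd4 at 4.58 normalized counts over pooled reads against 6.96 in the wild-type tumors, so the share is no ratio of T cells.

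**Figure D3:**
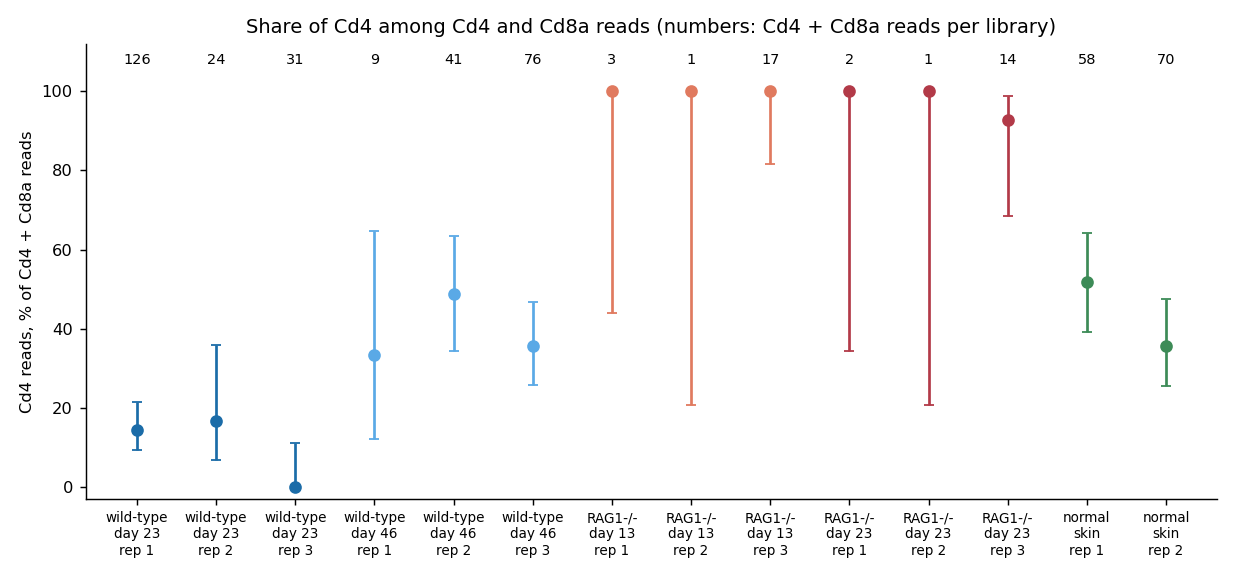
Cd4 reads as a percentage of the Cd4 and Cd8a reads of each tumor and skin library, with 95% Wilson intervals that cover counting error only and the number of reads above each point; MC38 cells had none. The 3 wild-type tumors of day 23 lie at 0% to 16.7%, the 3 of day 46 at 33.3% to 48.8%, and the 6 labelled RAG1-/- at 92.9% to 100%, each on at most 17 reads.

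Skin held more of most of these transcripts than the tumors did. Cd3d had 106 and 101 normalized counts in the 2 skin libraries and at most 50.9 in a tumor, and Cd3e 40.2 and 42.1 against at most 23.2. Both skin libraries lay above every wild-type tumor for 6 of the 10, Cd3d, Cd3e, Cd3g, Cd247, Cd4 and Zap70, against 26.9% of the 27343 genes read in these libraries. The 6 were also those called lower in wild-type tumors than in skin, where 34.2% of the 16259 genes tested were called lower. The fold changes among the 6 ran from -1.71 for Cd3e (standard error 0.56, limma adjusted p = 0.0177) to -2.89 for Cd3g (standard error 0.81, adjusted p = 0.00713). The wild-type tumors and skin overlapped for Cd8a (37.5 and 57.4 normalized counts in skin), Cd8b1 (25.5 and 76.5), Lck (50.9 and 48.4) and Cd28 (12.1 and 29.3), none of which passed. Of the other members called, skin gave 20.1 and 45.9 normalized counts of Cd3g, 26.8 and 52.3 of Cd247 and 40.2 and 31.9 of Cd4. Zap70 was uneven in skin, with 8.04 and 58.6.

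The skin comparison depended on the scale. The median log2 fold change of all genes was -0.18 and moved by 0.41 when libraries were set to the same total, which turned 3708 genes higher and 5554 lower into 5504 higher and 4043 lower and left 2 members, Cd3g and Cd247, lower. All 10 members kept a negative fold change under each scaling. Without skin replicate 2 none of the 8 members then tested was called, and without skin replicate 1, 3 were. The skin libraries also held the Y-linked gene Ddx3y at 1803 and 1919 normalized counts against at most 1.07 in tumors and MC38 cells, so tissue and the sex of the animals cannot be told apart here.

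Transcripts of the receptor chains themselves followed the CD3 genes in part. Trac, the constant part of the alpha chain, gave 28.8, 5.11 and 7.92 normalized counts on day 23 and 51.8, 9.40 and 5.02 on day 46 of wild-type growth, and no read in the 6 tumors labelled RAG1-/- (limma adjusted p = 0.0115). Its highest value was in replicate 1 of day 46, the tumor that was lowest for Cd3d, Cd3e, Cd8a and Cd8b1. Trbc1 and Trbc2, the constant parts of the beta chain, had 6.84 to 46.0 and 6.84 to 83.3 normalized counts in wild-type tumors and 0 to 17.7 and 0 to 9.53 in tumors labelled RAG1-/-, where each was read in 5 of 6 libraries. The 2 are similar genes, and how well reads were told apart between them at the 3′ end was not tested. Of the 7 constant genes 3 could be tested over both days and 2, Trac and Trbc2 (adjusted p = 0.0313), were higher in wild-type tumors. Tcrg-C2, of a gamma chain, had 0.977 to 17.7 normalized counts in wild-type tumors and no read in the others, and passed only in the fit without the filter (limma adjusted p = 0.0267). Trdc, of the delta chain, went the other way, with 5 reads in wild-type tumors and 15 in the others, each from 2 libraries. Tcrg-C1 had 5 reads against 0, and Tcrg-C4 had 10 against 3.

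In skin the beta, gamma and delta chain genes stood above the tumors. Trbc2 had 535 and 790 normalized counts in skin and at most 83.3 in a tumor, and Trbc1 119 and 227 against at most 46.0. Trac overlapped, with 33.5 and 44.6 in skin and at most 51.8 in a tumor. Trdc had 58.9 and 89.2 normalized counts in skin and at most 8.56 in a tumor, reached in a day 13 tumor labelled RAG1-/-. Tcrg-C1 had 81.7 and 131 normalized counts in skin against at most 2.95 in a tumor. Both were lower in wild-type tumors than in skin (limma adjusted p = 9.29e-05 and 2.46e-07). In all, 5 of the 6 constant genes tested and all 4 of the gamma delta T cell genes tested were lower, where 34.2% of all genes tested were lower. Both lists hold Trdc, Tcrg-C1, Tcrg-C2 and Tcrg-C4, so these counts are not independent. The balance of all genes turned under the same total, as given above. CD3 and zeta transcripts are shared by alpha beta and gamma delta T cells, and the part of either in the skin values was not tested.

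**Figure D4:**
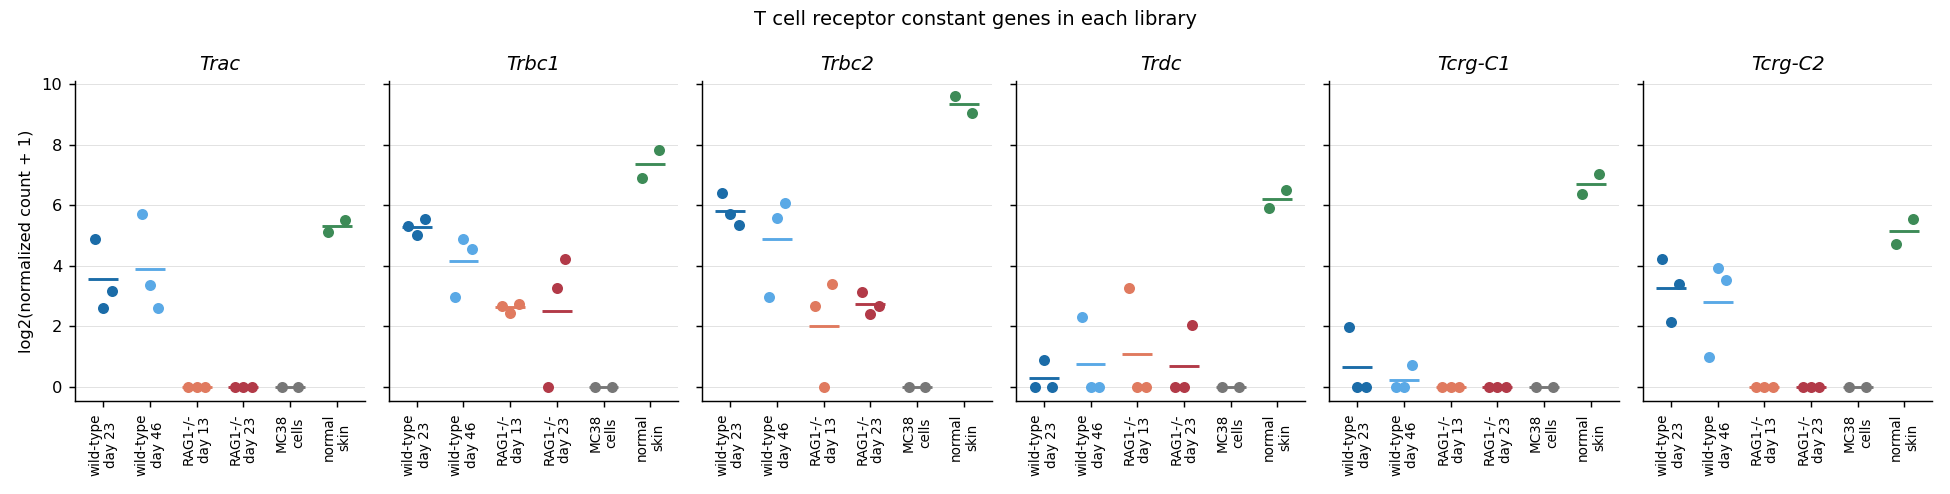
Constant genes of the T cell receptor chains, with log2(normalized count + 1) per library on the vertical axis, groups along the horizontal axis and bars at the group means of the plotted values (n = 3 per tumor group, 2 for MC38 cells and skin). Trac and Tcrg-C2 are at 0 in all 6 tumors labelled RAG1-/-, and Trbc1 and Trbc2 are not. Trbc1, Trbc2, Trdc and Tcrg-C1 are higher in both skin libraries than in any tumor.

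The genes that act beside the receptor are given by list, beside the 0.570% of all genes tested that were higher in wild-type tumors over both days. Of 30 genes of T cell receptor signalling, 19 could be tested over both days and 0 passed (limma; the median log2 fold change was 0.18). These include adaptors and kinases used by many blood cells, such as Fyb, Csk and Vav1. Lat, the adaptor that ZAP70 phosphorylates, had an adjusted p of 0.110. Of 9 CD28 family receptors and ligands, 5 could be tested and 2 were higher in wild-type tumors. They were Icos, a costimulatory receptor, with 8.80 to 39.1 normalized counts in wild-type tumors and 0 to 5.24 in the others (log2 fold change 3.99, standard error 0.55, limma adjusted p = 0.00221), and Cd274, which encodes PD-L1 (138 to 414 against 81.9 to 137, log2 fold change 1.15, limma adjusted p = 0.0124).

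Ctla4, the inhibitory receptor that competes with CD28, had 1.95 to 17.9 normalized counts in wild-type tumors and no read in the 6 others, and was called in the fit without the filter (limma adjusted p = 0.0147). Of 14 T cell lineage and subset genes, 9 could be tested and 1 was higher, Bcl11b, a transcription factor of T cell identity (limma adjusted p = 0.0368). Cd27, a costimulatory receptor, had 2.93 to 10.3 normalized counts in wild-type tumors, no read in the others and an adjusted p of 0.00353 without the filter. Foxp3, the factor of regulatory T cells, was read in 3 of 6 wild-type tumors and in none labelled RAG1-/-.

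The genes whose profile over the 16 libraries was most like the summed profile of the members were ranked by percent overlap, the sum over libraries of the smaller of both shares. Il2rb, the interleukin 2 receptor beta chain of T and NK cells, came first of 16148 genes with 87.6%, followed by Tcrg-C2 (87.0%), Dnase1l3 (85.7%), Apol6 (85.2%) and Cd2 (84.5%), an adhesion receptor of T and NK cells, against a median of 50.7%. The members' own overlap with their sum ran from 60.9% for Zap70 to 88.3% for Cd3d. Skin and wild-type tumors hold most of each of these profiles, so the measure mainly compares those libraries.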

How the data were processed

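The authors prepared QuantSeq 3′ libraries, which read each transcript near its 3′ end, and sequenced them on an Ion Proton. Per the study's methods and the submitters' processing notes, reads were trimmed with cutadapt and Trimmomatic, mapped to mm10 (GRCm38) with STAR and then Bowtie2, freed of ribosomal RNA, and counted per gene with HTSeq. Only the primary alignment of multi-mapping reads was kept. The deposited signal is the count normalized by the authors with DESeq2. Versions, annotation and strand setting are not given in the sources used here. Dividing each library by its smallest value above 0 gave whole reads for 100% of the values (tolerance 0.01), and 5589151 to 26134241 reads fell on genes. No molecular identifiers are named, so intervals and floors cover counting error only.

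Log2(normalized count + 1) was tested with limma 3.58.1 (R 4.3.3, trend in the spread, two-sided, Benjamini-Hochberg adjustment over all genes tested, threshold 0.05) where a gene averaged 5 normalized counts or more over the libraries of the fit. The 12 tumors were fitted as 4 groups, and 14 libraries with skin. Fold changes on this scale understate changes of low genes. Single transcripts were also compared with exact permutation tests. The effect of other settings, including edgeR 4.0.16 and DESeq2 1.42.0 on the recovered reads, is given at the end. Tumors came from different mice, and labels do not say whether the 2 MC38 or 2 skin samples were independent, so p-values there measure the spread between samples. On simulated reads the tests recovered known changes, planted only in genes with a higher mean than most members had. How the tests do on genes as low as those members was not tried. Ratios with 1 to 3 reads in a group, and intervals, were computed from reads pooled over libraries. Gene positions are from GENCODE M21 and promoters from RefSeq.

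The members and gene lists were chosen with earlier results of these data known. Named genes were the 10 members, Rag1, genes of the lists, and the 5 genes with the most similar profile. Ddx3y was added after its values were seen. A second deposited table of antibody-treated tumors was not used, because its 6 columns match no label.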

Additional observations from a re-analysis of the deposited data

Results flagged for a closer look

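Among the 6 tumors labelled RAG1-/-, 5 transcripts had 1 library whose gap to the next exceeded Dixon's 95% critical value. The 20 sets of 6 tumors (10 transcripts in 2 genotypes) were examined. For measurements with a normal spread chance flags about 1 in 20, a rate that does not apply to counts this low. For Cd3d and Cd8a the flag follows from 1 library alone holding any read. Replicate 3 of day 13 was the high library for Cd3d (2.86 normalized counts against 0), Cd4 (16.2, next 5.74) and Lck (20.0, next 7.49). It also held the most Rag1 reads. Replicate 1 of day 13 was high for Zap70 (9.63, next 2.13), and replicate 3 of day 23, the deepest library, for Cd8a (0.442, a single read). No wild-type tumor was far from the others by this measure.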

How the results depend on the processing

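Over both days the 5 member calls held in each fit that left out 1 tumor and in all other settings but the one without a filter, where 4 held. The number of genes called was 105 and became 48 without a trend and 283 with DESeq2, and 65 to 171 with 1 tumor left out (RAG1-/- day 23 replicates 1 and 3). At day 23 the 2 member calls became 1 with a pseudocount of 0.1, without a filter, with the same total, with the same upper quartile, with the replicate block and with edgeR, 5 with DESeq2, and 0 to 1 with 1 tumor left out. Without a trend there were again 2, with Lck lost (limma adjusted p = 0.0729) and Cd3e gained (0.0385), so that Lck was called in 2 of 9 settings at day 23 and Cd8a in 9. Genes called there numbered 41, and 22 without a filter, 15 without a trend, 22 with edgeR, 239 with DESeq2, and 5 to 60 with 1 tumor left out, with at most 11 without wild-type replicate 1 or 3 or RAG1-/- replicate 1 or 2. Between wild-type days 0 genes became 1 with the same upper quartile and 41 with DESeq2, and 0 to 7 with 1 tumor left out, the 7 without replicate 1 of day 46. Between days of the tumors labelled RAG1-/- 0 genes became 206 with DESeq2 and 0 to 37 with 1 tumor left out, the 37 without replicate 2 of day 13. Against skin the 6 members became 1 with a pseudocount of 0.1, 3 without a filter, 2 with the same total, 3 with edgeR and 2 with DESeq2, and 0 to 6 with 1 library left out. Setting libraries to the same total or upper quartile moved the median of all genes by at most 0.12 between tumor groups. The cause of these changes was not tested.

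Log2 fold changes turned direction in comparisons where the member passed no test. Over both days Cd4 ranged from -0.051 to 0.91 with 1 tumor left out. At day 23 Cd4 was at -0.09 and came to 0.60 with edgeR and 0.63 with DESeq2, and -1.01 to 0.90 with 1 tumor left out. Cd28 was at 0.09 and came to -0.82 with a pseudocount of 0.1, and -0.57 to 1.37 with 1 tumor left out. Between wild-type days, with 1 tumor left out, Cd3d ranged from -1.53 to 0.33, Cd3e from -0.34 to 0.81 and Cd28 from -0.13 to 1.80. Between days of the tumors labelled RAG1-/- Zap70 came to 0.57 with a pseudocount of 0.1 and Cd4 ranged from -1.004 to 0.51 and Zap70 from -0.75 to 0.95 with 1 tumor left out.

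Same-numbered tumors were different mice. The correlation of their deviations from the group means over 18 pairs ran from -0.24 to 0.25 (median 0.01), which shows no common pairing by number. A batch shared by some of these libraries was not tested. The replicate block gave 5 members and 109 genes over both days, 1 member and 39 genes at day 23, none between days, and 5 members against skin. Members rest on 0 to 108 reads per library, so that depth limits each low value, Zap70 and Cd3g most.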
